A study of Homo sapiens with 6 samples.

Results

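The brain matrix proteoglycan genes described here are the 4 lecticans (VCAN, BCAN, NCAN and ACAN), the 3 testicans (SPOCK1, SPOCK2 and SPOCK3) and 3 small leucine-rich proteoglycans (DCN, BGN and LUM). They were chosen by gene name, as these 10 of the 33841 genes listed, and each was followed in the 6 libraries. RNA was compared between 3 libraries of parental LN229 cells (WT, labelled PARP3+/+) and 3 libraries of PARP3-/- LN229 cells, in which CRISPR/Cas9 was used to disrupt PARP3, a DNA-dependent ADP-ribosyltransferase, and each library is a biological replicate per the labels. LN229 is an established human glioblastoma cell line, and both groups were proliferating cultures in serum-containing medium without any treatment. PARP3-/- lines were grown from single cells, and the sources used here do not say which such clone was sequenced, so the loss of PARP3 and differences carried by a clone cannot be told apart. Of the 10 genes, 8 had enough counts to be among the 17144 genes tested, while BCAN and NCAN fell below the filter on low counts. ACAN passed that filter through its WT libraries alone.

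Lecticans are large proteoglycans of the brain matrix that bind hyaluronan at one end, where link proteins hold the complex together, and tenascins at the other, with chondroitin sulfate chains between. Testicans are secreted proteoglycans of the SPARC family and are most abundant in brain, and the small leucine-rich proteoglycans bind collagen fibrils and growth factors. In gliomas this matrix surrounds invading cells, and proteases that cut lecticans remodel it.

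Total counts were 35582892, 42539536 and 40480954 for WT replicates 1 to 3, and 29692065, 46010369 and 38239851 for PARP3-/- replicates 1 to 3. A level of 3 counts, taken as the lowest that can be told from no reads, was 0.0673 to 0.0995 CPM (counts scaled to TMM-adjusted library size), and this limit covers counting error only. PARP3 itself had 1273, 942 and 995 counts in WT and 574, 1004 and 736 in PARP3-/- cells, and the groups overlapped (edgeR, log2 fold change −0.42, SE 0.18, adjusted p = 0.307). With the replicate number as a block the log2 fold change of PARP3 was −0.39 and the adjusted p was 0.0469 (edgeR). These counts are summed over the whole gene and do not check a disruption that leaves other exons in place. Replicate 1 stood apart from replicates 2 and 3 in both genotypes, with a chi-square per degree of freedom over genes of 52.7 to 105.6 against them, where replicates 2 and 3 differed by 12.1 in WT and 4.08 in PARP3-/- cells. Values without both replicate 1 libraries are given beside the results. Of 10 glial and neural progenitor markers, VIM, NES, SOX2, OLIG2, S100B and FABP7 were well above the limit in each library, GFAP and AQP4 were at or below 0.253 CPM on average in each genotype, and SOX9 had 1 count in all 6 libraries together. OLIG1 was low, with 13, 17 and 35 counts in WT and 4, 17 and 13 in PARP3-/- cells. Of the 7 of these markers that were tested, 6 had negative log2 fold changes, with a median of −0.53, against −0.0062 over all tested genes. S100B fell by 1.06 on the log2 scale (edgeR adjusted p = 0.0256), while FABP7 (−1.29) and OLIG2 (−0.53) passed in DESeq2 (adjusted p = 0.000348 and 0.0242) and with the edgeR block, and not in edgeR without it (adjusted p = 0.0577 and 0.0800). SOX2 (−0.32) passed with the edgeR block (adjusted p = 0.00516), and not in edgeR without it (adjusted p = 0.335) or in DESeq2 (adjusted p = 0.462). The part of this shift of the markers in the values of the proteoglycan genes was not tested. The summed microglia and leukocyte markers stayed between 0.0714 and 0.179 CPM and the summed endothelial markers between 0.224 and 0.821 CPM. The summed neuron markers were 55.5 to 117.5 CPM in WT and 61.6 to 95.7 CPM in PARP3-/- cells. SYT1 made up most of these sums (65.7 and 63.1 CPM on average), followed by SNAP25 (10.6 and 10.0 CPM). RBFOX3 and STMN2 had at most 1 count in a library.

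Of the tested genes, each of the 3 families held 1 that was lower in PARP3-/- cells, namely ACAN among the lecticans, SPOCK1 among the testicans and DCN among the small leucine-rich proteoglycans. ACAN went from 122 to 194 counts in the WT libraries to 0 in each PARP3-/- library. SPOCK1 fell from 25.4 ± 0.937 to 9.88 ± 0.864 CPM and DCN from 11.2 ± 1.32 to 5.395 ± 0.673 CPM (SD, n = 3 each). VCAN, SPOCK2, SPOCK3, BGN and LUM overlapped between the genotypes, and BCAN, not tested, separated at very low counts. At an adjusted p under 0.05 in edgeR's quasi-likelihood test, 3 of the 8 tested genes were lower, where 3.33% of all tested genes were, and 0 were higher, where 1.36% were. Without the block, none of the 8 was higher at an unadjusted p under 0.05 in edgeR or at an adjusted p under 0.05 in DESeq2, and with the replicate number as a block LUM was higher at an unadjusted p of 0.0172 (edgeR). Without both replicate 1 libraries the count was again 3 lower and 0 higher, where 10.1% and 8.91% of all genes tested then were. The same 3 genes had all PARP3-/- libraries below all WT libraries, as did 12.0% of all tested genes, and 0 members had them above, as did 10.8%. The median log2 fold change of the 8 genes was −0.20, against −0.0062 over all tested genes. Since ACAN entered the test through WT alone, these counts and this median describe the genes and were not used as support for a shift of the group.

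**Figure D1:**
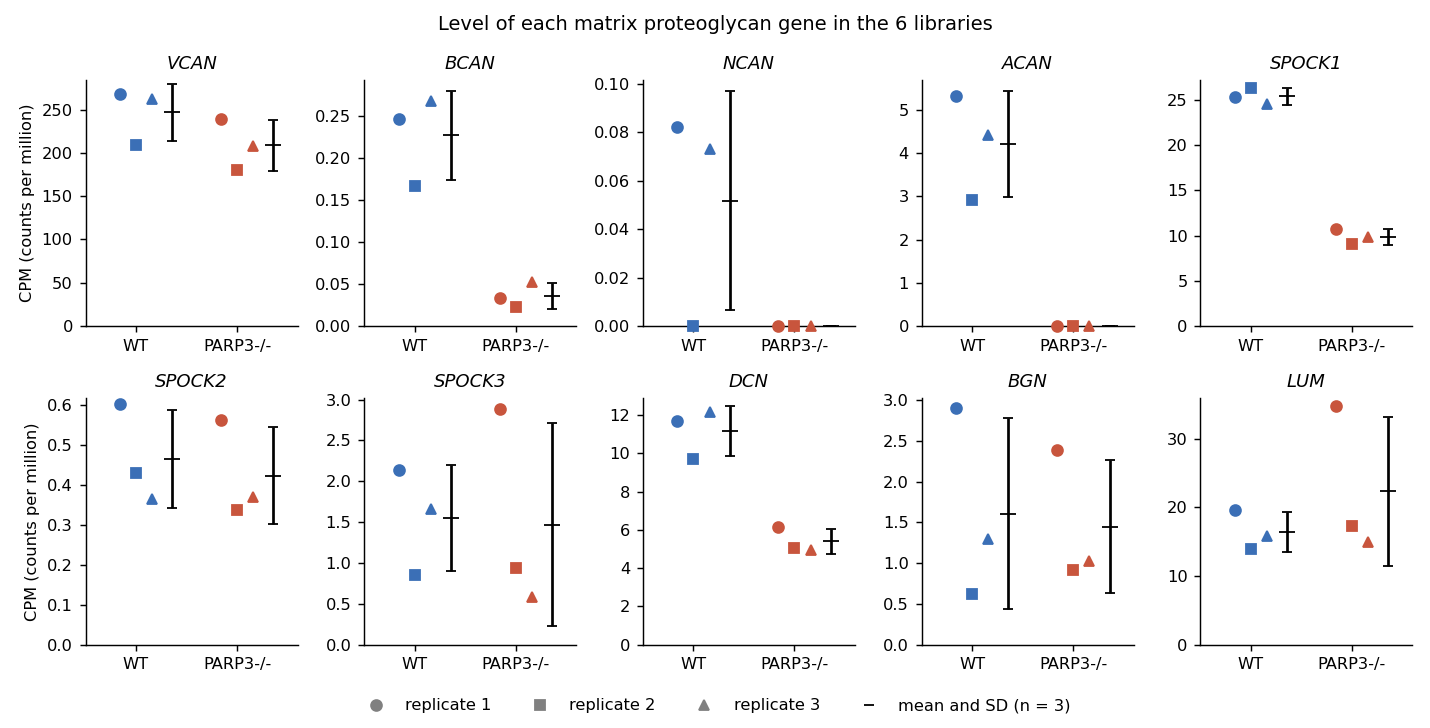
Level of each of the 10 genes in CPM (linear axis from 0, a scale of its own in each panel) in the 3 WT libraries (blue) and the 3 PARP3-/- libraries (red), with replicate numbers as marker shapes and the mean and SD (n = 3) in black. ACAN, SPOCK1 and DCN separated, with ACAN at 0 in each PARP3-/- library, as did BCAN at 1 to 11 counts, while the points of VCAN, NCAN, SPOCK2, SPOCK3, BGN and LUM overlapped.

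ACAN encodes aggrecan, the lectican of cartilage and of the perineuronal nets around some neurons. ACAN (ENSG00000157766, chr15:88803443-88875354, plus strand, hg38) had 194, 122 and 181 counts in the WT libraries, or 5.31, 2.91 and 4.41 CPM. It had 0 counts in each of the 3 PARP3-/- libraries. The groups were fully apart. The level was at least 42.3-fold lower when the PARP3-/- group was set at the limit of 3 counts in its shallowest library. ACAN passed the filter through its WT libraries alone. Its edgeR adjusted p of 0.00254 is therefore a description and was not used as support. In bulk RNA, fewer cells with ACAN transcripts and less ACAN RNA per cell cannot be told apart.

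The promoters of ACAN and VCAN are shown because these were the lecticans that could be tested, the former at 0 in PARP3-/- cells and the latter with overlapping groups. Each window runs from 250 bases before to 50 bases after the RefSeq transcript start, on the plus strand of GRCh38.p14, at chr15:88803186-88803485 for ACAN and at chr5:83471494-83471793 for VCAN, and capitals mark CG dinucleotides.
ACAN: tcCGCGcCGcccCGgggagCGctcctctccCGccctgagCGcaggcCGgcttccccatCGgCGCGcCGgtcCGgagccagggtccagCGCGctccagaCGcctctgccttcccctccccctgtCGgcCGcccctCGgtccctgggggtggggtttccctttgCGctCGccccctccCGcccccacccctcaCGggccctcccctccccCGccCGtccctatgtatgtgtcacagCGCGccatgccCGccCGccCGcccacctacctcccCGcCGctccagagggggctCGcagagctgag
VCAN: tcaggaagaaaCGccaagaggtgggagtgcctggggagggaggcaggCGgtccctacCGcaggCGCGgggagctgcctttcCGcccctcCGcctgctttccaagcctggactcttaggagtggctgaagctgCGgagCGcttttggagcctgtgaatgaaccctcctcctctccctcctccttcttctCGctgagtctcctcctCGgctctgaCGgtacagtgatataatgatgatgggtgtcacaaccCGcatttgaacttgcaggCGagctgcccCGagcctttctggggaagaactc
The ACAN window held 33 CG dinucleotides, more than 82.8% of the 35116 human promoter windows in the table, and the VCAN window held 15, near the median of 14. On both strands together and with overlapping matches counted, GGGCGG, which includes 1 CG, occurred 8 times in the ACAN window and 1 time in the VCAN window, and 44.95% of all windows held it. TATAAA and CCAAT, found in 11.5% and 34.6% of all windows, were in neither of these windows. Promoter windows were matched for 6 of the 10 genes (VCAN, BCAN, ACAN, SPOCK2, SPOCK3 and BGN). The BCAN window held 31 CG dinucleotides and 5 matches to GGGCGG. The ACAN window spans the start of its gene as listed for the counts (88803443). The VCAN and BCAN windows lie wholly inside their listed genes (starts 83471465 and 156641390). The windows are therefore at unlike positions relative to the listed starts. These are counts of letters, and no binding or methylation was measured.

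VCAN encodes versican, a lectican of developing brain and of many tumour stromas. VCAN (ENSG00000038427, chr5:83471465-83582303, plus strand) had 9815, 8796 and 10784 counts in WT and 7198, 8018 and 7855 in PARP3-/- cells, or 268.6, 209.4 and 262.8 against 238.7, 179.9 and 207.8 CPM. The highest PARP3-/- library lay above the lowest WT library, so the groups overlapped, while replicate 2 was the lowest in both. The log2 fold change was −0.24 (SE 0.14, 95% interval −0.58 to 0.09, edgeR adjusted p = 0.491). With the replicate number as a block the estimate was the same, −0.24, with an SE of 0.05 and an adjusted p of 0.00721 (edgeR). Within replicate numbers 1, 2 and 3 the log2 ratio of PARP3-/- over WT was −0.17, −0.22 and −0.34. VCAN was therefore lower within each same-numbered pair. The correlations between libraries did not separate number 2 from number 3. This result and the blocked p-value therefore depend on pairing by label. The means were 247 ± 32.6 CPM in WT and 209 ± 29.45 CPM in PARP3-/- cells (SD, n = 3 each). With the block, 4 of the 8 tested members were lower, where 12.5% of all tested genes were, and 0 were higher, where 11.8% were. Without both replicate 1 libraries and without the block, VCAN had a log2 fold change of −0.29 and an adjusted p of 0.0860 (edgeR).

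BCAN and NCAN encode brevican and neurocan, the lecticans most restricted to the nervous system. BCAN (chr1:156641390-156659532) had 9, 7 and 11 counts in WT and 1, 1 and 2 in PARP3-/- cells. All 3 PARP3-/- libraries lay below all 3 WT libraries at these few counts, and the ratio of summed counts, WT over PARP3-/- and scaled to library size, was 6.35, with an exact 95% counting interval of 2.21 to 25.0. BCAN did not pass the filter. Without any filter its edgeR adjusted p was 0.0408 over 33841 genes, and in DESeq2 it was 0.0925. BCAN overlaps the antisense genes AL365181.3 and AL590666.2, with 48.3 and 7.33 mean counts in WT and 28.0 and 3.67 in PARP3-/- cells, and because the strand setting of the counting is not given in the sources used here, reads of BCAN and of these genes may not be separated. NCAN (chr19:19211973-19252233) had 3, 0 and 3 counts in WT and 0 in each PARP3-/- library. It was at or under the limit of 3 counts in each library, so a difference was not detectable at this depth.

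Among the lectican transcripts, counted per kilobase of annotated exon, VCAN made up 97.08%, 97.93% and 97.44% in WT and 99.96%, 99.96% and 99.92% in PARP3-/- cells. ACAN made up 2.581%, 1.827% and 2.199% in WT and 0% in PARP3-/- cells. The VCAN share was thus higher in each PARP3-/- library than in any WT library, by 2.46 percentage points on average (exact permutation test, two-sided, p = 0.1, the smallest that 3 against 3 allows). This difference mirrors the lower shares of ACAN (−2.20 points) and BCAN (−0.22 points). It is not a separate result for VCAN, whose mean level was 247 CPM in WT and 209 CPM in PARP3-/- cells.

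**Figure D2:**
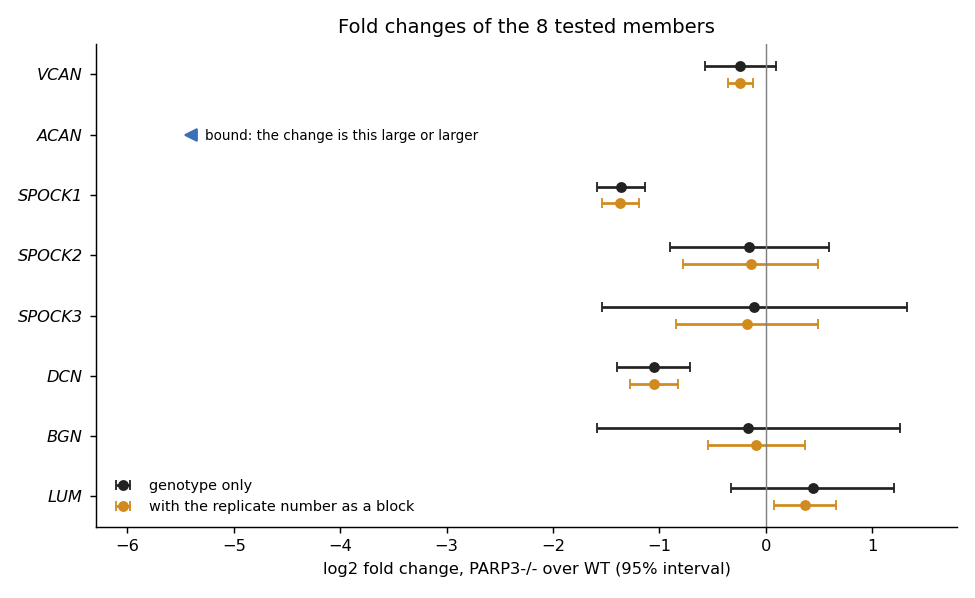
Log2 fold change of PARP3-/- over WT with its 95% interval for the tested genes, from edgeR with genotype alone (black) and with the replicate number as a block (orange), and for ACAN a blue arrowhead at its bound of at least 42.3-fold lower. The intervals of SPOCK1 and DCN lay below 0 in both models, that of VCAN lay below 0 and that of LUM above 0 in the blocked model, and those of SPOCK2, SPOCK3 and BGN spanned 0 in both.

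Among the testicans, SPOCK1 was lower in PARP3-/- cells and SPOCK2 and SPOCK3 overlapped. SPOCK1 encodes testican-1, which carries chondroitin and heparan sulfate chains. SPOCK1 (ENSG00000152377, chr5:136975298-137598379, minus strand) had 927, 1107 and 1005 counts in WT and 324, 402 and 373 in PARP3-/- cells, or 25.4, 26.4 and 24.5 against 10.8, 9.02 and 9.87 CPM. Each group was narrow, and the highest PARP3-/- library was well below the lowest WT library. The level fell by 1.37 on the log2 scale with the block and by 1.36 without it (SE 0.10, edgeR adjusted p = 0.000599). SPOCK1 was the member that also passed an adjusted p under 0.001 with a log2 fold change beyond 1, and with any 1 library left out its adjusted p was between 0.00143 and 0.00724 (edgeR). Within replicate numbers its log2 ratio was −1.24, −1.55 and −1.31.

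SPOCK2 encodes testican-2 and was near the limit of measurement. SPOCK2 (chr10:72059035-72089032) had 22, 18 and 15 counts in WT and 17, 15 and 14 in PARP3-/- cells. The groups overlapped, and the 95% interval of the log2 fold change, −0.90 to 0.59 around −0.16, leaves room for a change in either direction (edgeR, adjusted p = 0.899). SPOCK3 encodes testican-3. SPOCK3 (chr4:166733384-167234796) had 78, 36 and 68 counts in WT and 87, 42 and 22 in PARP3-/- cells, and its log2 ratio within replicate numbers was 0.43, 0.14 and −1.51. The PARP3-/- libraries thus held both the highest and the lowest level of this gene, and its 95% interval ran from −1.54 to 1.33 (edgeR, adjusted p = 0.972). Per kilobase, SPOCK1 made up 90.8% ± 3.28 of the testican transcripts in WT and 81.5% ± 9.97 in PARP3-/- cells (SD, n = 3 each), with overlapping groups (exact permutation test, two-sided, p = 0.2). Without PARP3-/- replicate 1, which had the lowest SPOCK1 share at 70.3%, the difference shrank from −9.28 to −3.69 percentage points.

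DCN and LUM, which lie 28.7 kb apart on chromosome 12 on the same strand, were followed as a pair, and DCN fell while LUM overlapped between the genotypes. DCN encodes decorin, which binds collagen fibrils and TGF-beta. DCN (ENSG00000011465, chr12:91140484-91183123, minus strand) had 428, 407 and 499 counts in WT and 186, 226 and 187 in PARP3-/- cells, or 11.7, 9.69 and 12.2 against 6.17, 5.07 and 4.95 CPM. All PARP3-/- libraries were below all WT libraries, and the level fell by 1.05 on the log2 scale (95% interval −1.40 to −0.71, edgeR adjusted p = 0.00919). The adjusted p was 0.0574 without PARP3-/- replicate 2, 0.0551 without PARP3-/- replicate 3 and 0.0556 without WT replicate 3, with log2 fold changes of −1.01, −0.996 and −0.990 (edgeR). Without both replicate 1 libraries DCN had a log2 fold change of −1.13 and an adjusted p of 0.000357 (edgeR).

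LUM encodes lumican, a keratan sulfate proteoglycan of collagen fibrils. LUM (ENSG00000139329, chr12:91102629-91111831, minus strand) had 719, 582 and 647 counts in WT and 1048, 772 and 563 in PARP3-/- cells, or 19.7, 13.9 and 15.8 against 34.8, 17.3 and 14.9 CPM. PARP3-/- replicate 1 was far above the other libraries, and the rest overlapped. The log2 fold change of 0.44 (95% interval −0.33 to 1.20, edgeR adjusted p = 0.612) became −0.03 without PARP3-/- replicate 1, and with the block it was 0.37 (edgeR adjusted p = 0.0644). The log2 ratio of DCN over LUM counts within a library, which does not depend on scaling between libraries, was −0.75, −0.52 and −0.37 in WT and −2.49, −1.77 and −1.59 in PARP3-/- cells. It was lower in each PARP3-/- library than in any WT library, by 1.41 on average (exact permutation test, two-sided, p = 0.1, the smallest possible).

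BGN encodes biglycan, the closest relative of decorin. BGN (chrX:153494939-153509554) had 106, 26 and 53 counts in WT and 72, 41 and 39 in PARP3-/- cells. Replicate 1 was the highest in both genotypes and the groups overlapped, with a log2 fold change of −0.16 and a 95% interval of −1.59 to 1.26 (edgeR, adjusted p = 0.956). BGN overlaps HAUS7 on the other strand, which limits what its counts say. Of 5 fibroblast and pericyte markers, summed levels were 27.3 to 41.6 CPM in WT and 52.4 to 95.3 CPM in PARP3-/- cells. COL1A2 made up most of these sums, at 26.8 CPM in WT and 66.5 CPM in PARP3-/- cells on average. COL1A2 rose (log2 fold change 1.31, edgeR adjusted p = 0.0465), THY1 had 15, 9 and 13 counts in WT and 0, 1 and 1 in PARP3-/- cells, and COL1A1 and PDGFRB did not pass the test. PDGFRB was lower in all PARP3-/- libraries than in any WT library (log2 fold change −0.45). COL3A1, with 4 to 14 counts in a library, was not tested and overlapped. The part of these markers in the values of DCN and LUM was not tested.

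Compared per kilobase of annotated exon, VCAN was the most abundant member in WT at 16.8 CPM per kilobase, followed by LUM at 6.15 and SPOCK1 at 4.10. These 3 did not overlap in WT. DCN (0.865), BGN (0.667), ACAN (0.386) and SPOCK3 (0.346) came next, and neighbours in this order overlapped across the libraries. SPOCK2, BCAN and NCAN were lowest, at 0.0727, 0.0476 and 0.00748 CPM per kilobase. In PARP3-/- cells the leading genes were again VCAN (14.2), LUM (8.36) and SPOCK1 (1.59), with VCAN and LUM overlapping, and ACAN had left the middle of the order for 0. Using the length of the canonical transcript, LUM and SPOCK1 overlapped in WT, SPOCK3 stood above ACAN in WT, and DCN (0.788) stood above BGN (0.615) in PARP3-/- cells, so the order of these neighbours depends on the length used.

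The genes around the members were then compared, within 500 kb on either side. HAPLN1, which encodes the link protein that ties lecticans to hyaluronan, lies 55.5 kb from VCAN. It had 256, 299 and 383 counts in WT and 90, 104 and 89 in PARP3-/- cells and fell by 1.62 on the log2 scale (edgeR, adjusted p = 0.00372), with no overlap between the groups. The log2 ratio of HAPLN1 over VCAN counts was −5.26, −4.88 and −4.82 in WT and −6.32, −6.27 and −6.46 in PARP3-/- cells, a difference of −1.37 with separated groups (exact permutation test, two-sided, p = 0.1, the smallest possible). Of the 5 tested genes around VCAN, EDIL3, chosen here after its value was seen, rose by 0.46 on the log2 scale (edgeR adjusted p = 0.0423).

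HAPLN3, another link protein gene, lies 1.93 kb from ACAN. It had 496, 801 and 868 counts in WT and 348, 544 and 466 in PARP3-/- cells, or 17.9 ± 3.92 against 12.0 ± 0.422 CPM. The groups did not overlap, but the difference, −0.58 on the log2 scale, passed the threshold with the block (edgeR adjusted p = 0.00174) and not without it (edgeR adjusted p = 0.123). The 15 tested genes around ACAN had a median log2 fold change of 0.24, against 0.155 over the 594 tested genes of chromosome 15, and 4 of the 15 had negative values. RLBP1, 334.5 kb away, had 67.3 mean counts in WT and 14.7 in PARP3-/- cells and, like HAPLN3, passed with the block (log2 fold change −2.06, edgeR adjusted p = 9.69e-05) and not without it (edgeR adjusted p = 0.119). MIR9-3HG, 486.2 kb away, rose without the block (log2 fold change 1.33, edgeR adjusted p = 0.0454) and with it (1.32, edgeR adjusted p = 0.00503). Both were named after their values were seen. HAPLN2, 15.7 kb from BCAN, had 1 count in all libraries together, and HAPLN4 was not analysed here. All 4 tested genes around SPOCK1 had negative log2 fold changes, from −2.38 to −0.05. The median over the 836 tested genes of chromosome 5 was −0.033, and 4 genes are too few to describe a region. The lincRNAs AC109439.2 (22.7 mean counts in WT and 4 in PARP3-/- cells, edgeR adjusted p = 0.0106) and AC112178.1 (27.7 and 9.67, edgeR adjusted p = 0.0202) passed the test, while the protein-coding genes HNRNPA0 and FAM13B had values of −0.17 and −0.05 and did not, although HNRNPA0 passed with the block (edgeR adjusted p = 0.0298). The mean counts of both lincRNAs in PARP3-/- cells were below the filter minimum of 10 counts. Their calls are therefore given as a description and were not used as support. These 4 genes around SPOCK1 were named after their values were seen.

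**Figure D3:**
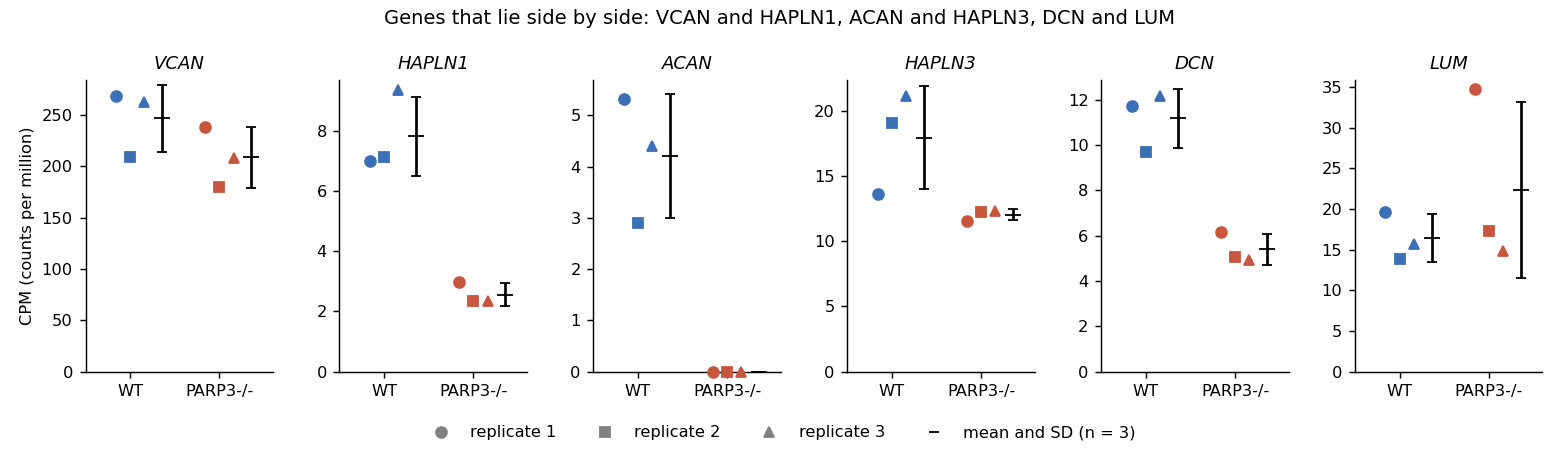
Levels in CPM (linear axis from 0) of the neighbouring pairs VCAN and HAPLN1, ACAN and HAPLN3, and DCN and LUM, in the 3 WT (blue) and 3 PARP3-/- (red) libraries, with the mean and SD (n = 3) in black. In each pair 1 gene was lower in all PARP3-/- libraries with an adjusted p under 0.05 (HAPLN1, ACAN, DCN), while VCAN and LUM overlapped and HAPLN3 separated without passing the test.

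The other genes of this matrix were taken from 6 lists of 90 genes in all, of which 77 were in the table and 66 were tested. In edgeR, 5 were lower and 6 were higher, against 3.33% and 1.36% of all tested genes, and the median log2 fold change was −0.08. With the replicate block, 24 were lower and 15 higher, against 12.5% and 11.8%. Without both replicate 1 libraries and without the block, 19 were lower and 14 higher, against 10.1% and 8.91%. All PARP3-/- libraries lay below all WT libraries for 17 of the 66 and above them for 10, against 12.0% and 10.8%. The 6 higher calls were lost without WT replicate 3 or without PARP3-/- replicate 3, and 1 remained without replicate 2 of either genotype. With 1 library left out, the log2 fold changes of these 6 genes stayed positive, between 0.44 (CHST11) and 1.59 (GPC3). All 6 kept their calls without both replicate 1 libraries. Why the calls were lost in the smaller fits was not tested.

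Of 13 tested hyaluronan, link protein and tenascin partners, HAPLN1 was lower and 0 were higher, against 3.33% and 1.36% of all tested genes. There were 12 negative values, and the median was −0.18, against −0.0062 over all tested genes. With the block 6 were lower and 0 higher, against 12.5% and 11.8% of all tested genes. Of the 22 tested genes that build chondroitin and dermatan sulfate chains, 1 was lower and 3 were higher, against the same 3.33% and 1.36%. With the block 6 of these 22 were lower and 6 higher, against the same 12.5% and 11.8%. CHST15, which sulfates N-acetylgalactosamine at a further position to give the highly sulfated E unit, had 69, 85 and 108 counts in WT and 0, 1 and 0 in PARP3-/- cells. It was nearly absent from the PARP3-/- libraries. The ratio of WT over PARP3-/- counts scaled to library size was 247, with an exact 95% counting interval of 43.9 to 9776. Like ACAN, CHST15 passed the filter through WT, so its edgeR adjusted p of 0.000447 is a description. CHSY3, a chondroitin synthase, rose from 8.21 ± 0.411 to 13.2 ± 1.29 CPM (edgeR, adjusted p = 0.0182). The sulfotransferase genes CHST9 and CHST11 rose by 0.92 and 0.49 on the log2 scale, just past the threshold (edgeR, adjusted p = 0.0449 and 0.0451).

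Among 8 tested proteases that cut lecticans and their inhibitor, the protease ADAMTS4 and the inhibitor TIMP3 moved in opposite directions. ADAMTS4, also called aggrecanase-1, had 249, 263 and 307 counts in WT and 25, 40 and 23 in PARP3-/- cells, with a log2 fold change of −3.13 (SE 0.19, edgeR adjusted p = 0.000348). TIMP3, an inhibitor of metalloproteases including ADAMTS4, rose from 1310 ± 134 to 2205 ± 147 CPM (log2 fold change 0.75, edgeR adjusted p = 0.0168). The other 6 tested genes of the list, among them ADAMTS5 and MMP2, did not pass the test without the block. With the block 3 of the 8 were lower and 1 was higher, against 12.5% and 11.8% of all tested genes. In the remaining lists, FSTL1, a secreted SPARC family protein, fell from 99.8 ± 10.8 to 68.2 ± 3.02 CPM (edgeR, adjusted p = 0.0256). It was 1 of 2 tested genes of its list, where 3.33% of all tested genes were lower. SPARC, the other, also separated, with a log2 fold change of −0.47 (edgeR adjusted p = 0.0546). SPARC passed in DESeq2 (adjusted p = 0.00374) and with the block (edgeR adjusted p = 0.000181). With 1 library left out the adjusted p of FSTL1 stayed under 0.05 without WT replicate 1 and was 0.0695 to 0.145 in the other 5 fits (edgeR). Among 17 tested cell surface and other proteoglycans, ESM1, the endothelial dermatan sulfate proteoglycan endocan, had 31, 53 and 43 counts in WT and 4, 10 and 8 in PARP3-/- cells (log2 fold change −2.43, edgeR adjusted p = 0.00499). ESM1 also passed the filter through its WT libraries alone. In the same list GPC3, a glypican, and AGRN, the basement membrane heparan sulfate proteoglycan agrin, rose by 1.34 and 0.65 (edgeR adjusted p = 0.0211 and 0.0135). With the block 7 of these 17 were lower and 8 higher, against the same 12.5% and 11.8%. None of the 4 tested genes among the other leucine-rich repeat proteoglycans passed in edgeR or in DESeq2, and 1 had an unadjusted p under 0.05 in edgeR. The most abundant of them per kilobase were TSKU (38.6 ± 5.47 against 38.8 ± 7.10 CPM) and CHADL (1.603 ± 0.349 against 1.26 ± 0.261 CPM).

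**Figure D4:**
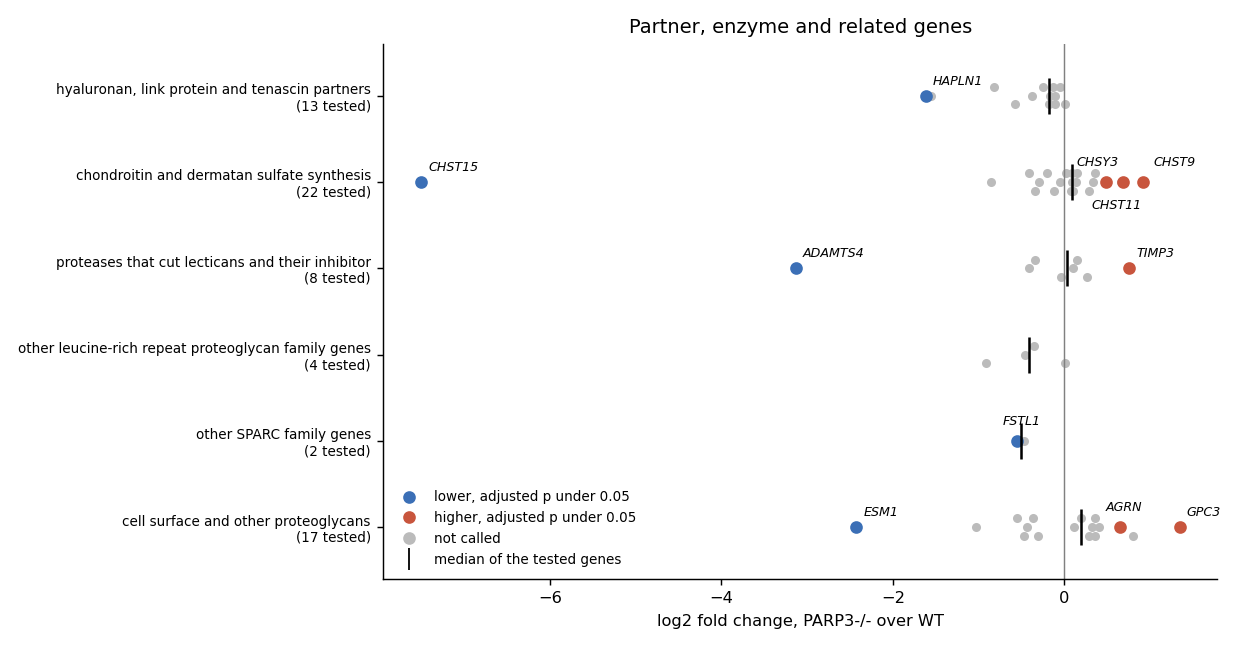
Log2 fold change of PARP3-/- over WT for each tested gene of the 6 lists (edgeR without the block), with genes at an adjusted p under 0.05 in blue (lower) or red (higher) and named, other tested genes in grey, and the median of each list as a black bar. The medians lay near 0 in the larger lists, between −0.18 and 0.20, and the called genes lay on both sides.

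The genes whose pattern over the 6 libraries was most like that of the most counted member of each family were listed as a description, from 13136 tested protein-coding genes, and the 6 points share genotype and depth. For VCAN these were ZNF764, INPP5F and SCG3 (Pearson r of log2 CPM of 0.988, 0.988 and 0.985), whose log2 fold changes were −0.18, −0.18 and −0.44. For SPOCK1 they were FAM149A, DTX4 and ANKRD30A (r of 0.999 for each), with larger differences of −3.13, −3.80 and −7.27. For LUM they were CDK11A, ANKS1A and TOR1AIP1 (r of 0.997, 0.989 and 0.988), with differences of 0.21, 0.08 and 0.08.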

How the data were processed

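Total RNA was extracted from 3 WT and 3 PARP3-/- LN229 cultures, depleted of ribosomal RNA and made into strand-specific libraries, whereas the labels name polyA RNA. The authors deposited raw read counts per gene. Per the submitters' processing notes the tools were bcl2fastq 2.17.1.14, cutadapt 1.10, Bowtie2 2.2.8, STAR 2.5.3a, HTSeq 0.6.1p1 and DESeq2 1.16.1, with hg38. The strand setting of the counting is not given in the sources used here. A further 12 per-sample columns of normalized values, and the authors' comparison columns with fold changes and p-values, were not used. The labels describe the disruption as exon 2 to exon 9, while the methods place guides in exons 2 and 5.

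Counts were analysed in R 4.3.3 with edgeR 4.0.16 (TMM scaling, filterByExpr with a minimum count of 10, quasi-likelihood test, Benjamini-Hochberg adjustment over the 17144 tested genes, genotype as the model term). CPM uses TMM-scaled library sizes. Exon lengths came from GENCODE 44, and promoter windows from RefSeq on GRCh38.p14. Shares and ratios were compared with exact permutation tests, where 3 against 3 libraries cannot go below 0.1. Alternatives were DESeq2 1.42.0, median-of-ratios scaling in edgeR, no filter, a mean count of at least 50, a replicate block, each library left out, and an adjusted p under 0.001 with a log2 fold change beyond 1. Leaving out both replicate 1 libraries and using canonical transcript lengths were added with the data in view. Replicate numbers come from the labels, and same-numbered libraries deviated together, with correlations of 0.677, 0.517 and 0.242, so they were taken as pairs. WT replicate 2 with PARP3-/- replicate 3 (0.41) and WT replicate 3 with PARP3-/- replicate 2 (0.264) also correlated, so these values separate replicate 1 from the others and not number 2 from number 3. Replicates are called biological by the labels, and separate cultures are not described further, so p-values measure the spread between these libraries. The procedure was tested on simulated counts with the same dispersion for all genes and no replicate structure. That check does not cover the replicate structure of these libraries.

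The members and gene lists were chosen with earlier results of these data known. The named genes are the 10 members, the genes of the lists that were called without the block or else the 2 most abundant per length, link protein genes beside lecticans, and the 3 genes most correlated with the most counted member of each family. Of the listed genes, HAS1, HAPLN4, TNR, LYVE1, CHST13, KERA, OGN, OPTC, ASPN, CHAD, SPARCL1, SMOC2 and GPC4 were not analysed here.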

Additional observations from a re-analysis of the deposited data

How the results depend on the processing

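Under the alternatives, 183 of 225 gene values of the 19 members and called list genes that were tested kept their direction and side of the threshold, 32 lost the call, 9 changed sign and 1 gained the call (VCAN with the replicate block). SPOCK1, HAPLN1 and ADAMTS4 kept their calls wherever they were fitted. So did ACAN, CHST15 and ESM1, but these passed the filter through WT alone, so this says nothing of their stability. FSTL1 lost its call in 5 of 6 fits with 1 library left out. Members lower numbered 3, with 2 to 3 when 1 library was left out, 4 without a filter, 4 with the replicate block and 1 at an adjusted p under 0.001 with a log2 fold change beyond 1, and members higher numbered 0 throughout. List genes lower numbered 5, but 10 with DESeq2, 3 at a mean count of at least 50, 8 without a filter, 24 with the replicate block, 19 without both replicate 1 libraries, 2 under the stricter rule and 4 to 8 with 1 library left out. List genes higher numbered 6, but 15 with the replicate block, 14 without both replicate 1 libraries, 0 under the stricter rule and 0 to 6 with 1 library left out. The block lost none of the 3 member calls. The difference in the VCAN share was 2.46 percentage points, 1.74 from raw counts without division by length and 2.26 to 2.69 with 1 library left out, and the difference in the SPOCK1 share ran from −13.3 to −3.69. Sign changes were confined to genes that were not called. With 1 library left out, the log2 fold change ran from −0.39 to 0.057 for SPOCK2 (positive without WT replicate 1), from −1.0 to 0.28 for SPOCK3 (0.14 without PARP3-/- replicate 2, 0.18 without WT replicate 1), from −0.70 to 0.56 for BGN (0.089 without PARP3-/- replicate 2, 0.028 without PARP3-/- replicate 3, and 0.026 without both replicate 1 libraries) and from −0.026 to 0.66 for LUM (negative without PARP3-/- replicate 1). The cause of these changes was not tested. Depth limits BCAN, NCAN and SPOCK2 most, since they had at most 22 counts in a library.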
